A study of Mus musculus with 1931 samples.

Results

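The genes of cholesterol and lipid synthesis were examined as a list of 32 symbols, of which 31 were measured among the 20999 genes of the expression table, while *Hmgcs1* was not analysed here. They were listed by name and role, but with earlier results of these data known. The list holds 6 measured genes of the mevalonate arm, 10 that carry squalene to cholesterol, 5 of the SREBP control system, 2 of sterol transport and binding, and 8 of fatty acid synthesis, elongation and desaturation. Single cells came from 1 pool of hand-picked Rosette-to-Lumen stage embryoids (RtL-embryoids) and from 3 monolayer (2D) cultures, and were measured by SMART-seq2, which covers whole transcripts of single sorted cells and adds no molecular identifiers. The embryoids were built from 3 mouse embryonic stem cell (ESC) lines, namely Kermit ESCs with GFP under the *Pou5f1* promoter, 5-Factor ESCs with doxycycline-inducible *Cdx2*, *Tfap2c*, *Eomes*, *Gata3* and *Ets2*, and mCherry-marked iGATA6 ESCs with doxycycline-inducible *Gata6*. Doxycycline was given at 2 µg/ml to the embryoids for 3 days and withdrawn before sorting, and the medium contained serum, as did those of all 2D cultures. Cells were sorted into multiwell plates as GFP+, mCherry+ or CD40+ cells. Columns 1 to 8 are taken here as GFP+ cells of the epiblast (Epi)-like compartment. Columns 9 to 16 are taken as mCherry+ cells of the visceral endoderm (VE)-like compartment. Columns 17 to 24 are taken as CD40+ cells of the extraembryonic ectoderm (ExE)-like compartment. The sample labels do not name the sorted population of a well. The 2D cultures were ESCs in 2i/LIF, induced trophoblast stem cells (iTSC), made with the same 5 factors, and induced extraembryonic endoderm (iXEN) cells, made with *Gata6*. The iTSC and iXEN cultures had the same dose and days of doxycycline and were likewise harvested after its removal, the iTSC also with FGF4 and heparin, whereas the ESCs were not reprogrammed.

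Each of these conditions is 1 sample, and plates 3, 4 and 5 of the RtL-embryoids are technical splits of the same pool, so no difference could be tested and no p-value was computed. Of 1931 wells, those with 2500 or more genes above 0 were used. They held 982 cells of the RtL-embryoids, 32% of them Epi-like, 32.1% VE-like and 35.9% ExE-like by column, and 424 cells of the 2D cultures, 33.5% ESCs, 33.3% iTSC and 33.3% iXEN cells. TPM carry no read number, and the median number of genes per cell, between 4823 and 5396 in the 3D groups and between 8537 and 9093.5 in the 2D cultures, stands in for depth. The 3D and 2D cells differ at once in culture, plate and library batch, which cannot be told apart, and shares of cells above 0 are therefore not compared between them. The labels give well columns and not lineages, so the markers were checked. All 7 Epi markers were highest in columns 1 to 8, all 7 VE markers in columns 9 to 16 and all 8 ExE markers in columns 17 to 24. In single wells the 3 marker lists were less clear: the highest list was that of another lineage in 0% of Epi-like, 2.22% of VE-like cells but in 31.7% of the ExE-like ones, where 66 cells were led by the VE list and 46 by the Epi list. VE-like cells also carried the parietal endoderm marker *Sparc* at 59.9 TP10k and *Pou5f1* at 4.53 TP10k, against 14.2 TP10k of *Pou5f1* in Epi-like cells.

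Cholesterol is built from acetyl units. In the mevalonate arm, two-carbon units are joined and turned into isoprenoids, which farnesyl diphosphate synthase (*Fdps*) condenses to the precursor of squalene. Squalene is then closed to a ring and trimmed, step by step, to cholesterol. The transcription factors SREBP1 and SREBP2 (*Srebf1*, *Srebf2*) switch on most of these genes when sterols are scarce, since SCAP carries them to the Golgi for cleavage, while INSIG1 and INSIG2 hold them back in the endoplasmic reticulum when sterols are plentiful. SREBP1 also acts on fatty acid synthesis, in which *Acly*, *Acaca* and *Fasn* make palmitate, *Elovl6* lengthens it and the *Scd* genes desaturate such saturated fatty acids. The *Fads* genes encode desaturases in the synthesis of long polyunsaturated fatty acids.

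SREBPs act together with the CCAAT-binding factor NF-Y and with SP1, which binds GC boxes, so the promoters of the members were read for these motifs. RefSeq promoters of build GRCm38.p6, 250 bases before to 50 after a start site, were found for 24 of the 31 measured members. The letters CCAAT, on either strand, stood in 12 of the 13 sterol enzyme genes with a promoter and in 19 of the 24 members, against 41.06% of the 27025 symbols in the promoter table. GGGCGG, on either strand, stood in 12 of the 13 and in 20 of the 24, against 38.2% of all symbols. The sterol regulatory element TCACNCCAC, on either strand, was in 0 of the 24 and in 1.436% of all symbols, which says only that these letters are not in these windows. The base composition of the promoters was not matched.

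The promoters below belong to members called higher in VE-like cells with *Nodal* than without it, as described further on. Of these 8 members, 5 had a promoter, and the 4 that hold CCAAT are shown. For *Fdps*, *Sqle* and *Fdft1* no promoter was found. Capitals mark the CCAAT letters on either strand (ATTGG on the other).
Msmo1 (GRCm38.p6, chr8:64733529-64733828, minus strand): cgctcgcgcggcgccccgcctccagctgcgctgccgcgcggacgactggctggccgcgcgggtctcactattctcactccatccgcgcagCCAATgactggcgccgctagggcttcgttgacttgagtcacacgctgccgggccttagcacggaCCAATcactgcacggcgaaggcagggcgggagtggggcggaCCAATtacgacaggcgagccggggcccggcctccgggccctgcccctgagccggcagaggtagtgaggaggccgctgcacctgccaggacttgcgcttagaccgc
Mvd (GRCm38.p6, chr8:122443373-122443672, minus strand): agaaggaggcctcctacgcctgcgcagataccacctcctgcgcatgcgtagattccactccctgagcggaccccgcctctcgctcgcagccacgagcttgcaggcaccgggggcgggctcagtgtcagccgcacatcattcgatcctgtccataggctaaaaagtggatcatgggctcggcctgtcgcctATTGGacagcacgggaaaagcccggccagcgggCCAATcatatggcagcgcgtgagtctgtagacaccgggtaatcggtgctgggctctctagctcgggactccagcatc
Lss (GRCm38.p6, chr10:76531355-76531654, plus strand): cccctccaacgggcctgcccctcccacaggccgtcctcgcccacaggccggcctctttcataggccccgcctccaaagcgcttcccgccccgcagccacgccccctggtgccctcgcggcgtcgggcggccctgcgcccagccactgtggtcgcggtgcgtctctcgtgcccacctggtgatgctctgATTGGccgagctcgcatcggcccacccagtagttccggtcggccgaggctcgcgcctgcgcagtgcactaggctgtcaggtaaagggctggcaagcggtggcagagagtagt
Idi1 (GRCm38.p6, chr13:8885356-8885655, plus strand): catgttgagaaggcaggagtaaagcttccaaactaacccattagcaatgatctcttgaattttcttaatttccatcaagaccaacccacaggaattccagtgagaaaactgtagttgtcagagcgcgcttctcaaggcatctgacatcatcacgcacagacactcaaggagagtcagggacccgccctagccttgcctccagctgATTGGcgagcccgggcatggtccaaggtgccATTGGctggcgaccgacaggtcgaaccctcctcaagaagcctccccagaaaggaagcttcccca
Msmo1 holds 3 of these boxes, Mvd and Idi1 hold 2 each and Lss holds 1. The promoter of *Acat2*, a further such member, holds 0 CCAAT boxes and 1 GC box.

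Levels are given as TP10k, that is TPM scaled to a sum of 10000 in each cell, averaged over all cells of a group with zeros included. TPM are per transcript length, so levels of different genes can be set side by side. *Fdps* (GRCm38, chr3:89093588-89101959, minus strand) had the highest mean of the 31 genes in Epi-like, ExE-like, ESC and iTSC cells. In VE-like cells the highest was *Msmo1* (chr8:64718139-64733792, minus strand), a methyl oxidase that trims the sterol ring, at 3.05 TP10k, ahead of *Fasn* at 2.76 and *Fdps* at 2.71. In iXEN cells it was *Tmem97*, an endoplasmic reticulum protein that binds sterols, at 2.65 TP10k. At the low end were *Fads2* in VE-like and iXEN cells and *Acaca* in Epi-like, ExE-like and ESC cells, all at or below 0.129 TP10k. As the heat map of mean levels shows, 16 members were highest in ExE-like, 9 in Epi-like and 6 in VE-like cells among the 3D groups, and 17 of the 31 had the same highest group on all 3 plates. The highest group was not counted over all genes, so these counts have no background and only describe the members. Of all genes compared, 55.8% had a higher mean in ExE-like than in Epi-like cells. A higher mean in VE-like than in ExE-like cells was found for 40.9%.

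**Figure D1:**
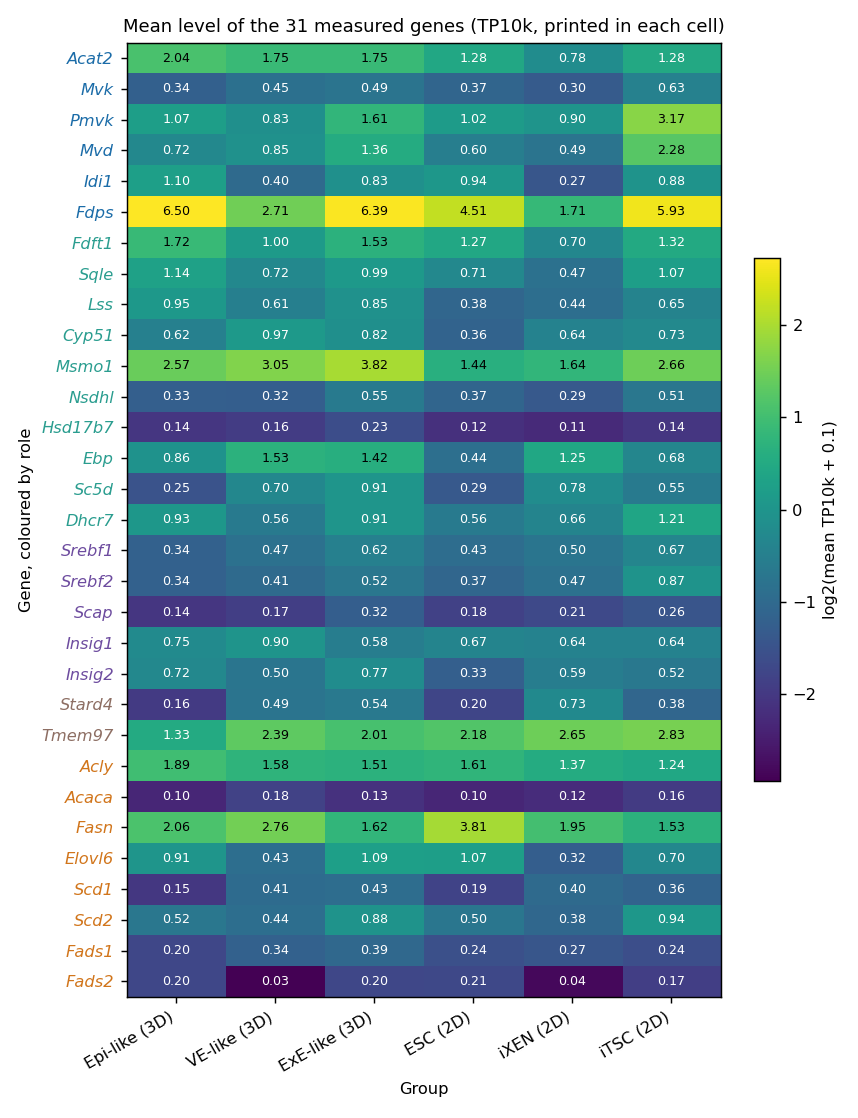
Mean level of each of the 31 measured genes in the 6 groups. Rows are genes coloured by role (blue, mevalonate arm; green, squalene to cholesterol; purple, SREBP control; brown, sterol transport; orange, fatty acids), columns are groups, colour is log2 of (mean TP10k + 0.1) and the printed number is the mean TP10k over all cells. *Fdps* is the brightest row except in VE-like and iXEN cells, where its mean is 2.71 and 1.71.

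The first question was how the 3 compartments differ. A gene is called here when log2 of (mean TP10k + 0.1) differs by at least 1, that is 2-fold, with the same sign on plates 3, 4 and 5. The added 0.1 shrinks the fold of weakly expressed genes. Against Epi-like cells, VE-like cells had 3 members called higher (*Sc5d*, *Stard4*, *Scd1*) and 3 called lower (*Fdps*, *Idi1*, *Fads2*), where 8.48% and 7.54% of 10662 genes were called higher and lower. The members' counts lie near that background, and their median log2 difference was 0.15, against -0.04 over all genes tested. Against ExE-like cells, 0 members were called higher and 3 lower (*Fdps*, *Elovl6*, *Fads2*), where 4.13% and 5.97% of 10836 genes were called, and the members' median was -0.32 against -0.10. ExE-like cells had 3 members called higher than in Epi-like cells (*Sc5d*, *Stard4*, *Scd1*) and 0 lower, where 6.53% and 3.78% of 10886 genes were called, and the members' median was 0.43 against 0.07. The 3 comparisons gave the same counts when the wells led by markers of another lineage were left out.

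In the mevalonate arm, *Fdps* stood at 6.24, 6.67 and 6.57 TP10k on plates 3, 4 and 5 in Epi-like cells, at 2.47, 2.88 and 2.80 in VE-like cells, and at 6.25, 6.6 and 6.32 in ExE-like cells. VE-like cells were lowest on every plate, without overlap, 2.35-fold below Epi-like and 2.31-fold below ExE-like cells. *Fdps* was above 0 in 76.5% of VE-like cells (exact binomial 95% interval 71.4 to 81.1%, counting error only), against 95.2% (92.2 to 97.3%) of Epi-like cells. *Idi1*, the isomerase one step upstream, had the same order. It stood at 0.878, 1.16 and 1.25 TP10k on the 3 plates in Epi-like cells, at 0.366, 0.408 and 0.445 in VE-like cells and at 0.866, 0.744 and 0.887 in ExE-like cells, 2.38-fold lower in VE-like than in Epi-like cells. *Acat2*, the cytosolic thiolase that joins acetyl units, differed little, at 2.04, 1.75 and 1.75 TP10k over all plates of the 3 groups. *Mvd*, which makes isopentenyl diphosphate, was at 0.684, 0.759 and 0.707 TP10k in Epi-like cells, at 0.755, 0.841 and 0.977 in VE-like cells and at 1.63, 1.30 and 1.12 in ExE-like cells, so that its ExE-like values lay above the others. The kinases *Mvk* and *Pmvk* ranged from 0.336 to 0.485 and from 0.826 to 1.61 TP10k over the 3 groups.

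Among the enzymes from squalene to cholesterol, the earlier steps were lower and several later steps higher in VE-like than in Epi-like cells. The squalene synthase *Fdft1* stood at 1.0 TP10k in VE-like and 1.72 in Epi-like cells, the epoxidase *Sqle* at 0.719 and 1.14, and the cyclase *Lss* at 0.611 and 0.953, all short of 2-fold. The later enzymes *Cyp51*, *Ebp* and *Sc5d* stood at 0.974, 1.53 and 0.705 TP10k in VE-like cells against 0.621, 0.858 and 0.254 in Epi-like cells. *Sc5d*, the desaturase close to the end of the pathway, was at 0.240, 0.248 and 0.273 TP10k on the 3 plates in Epi-like cells, at 0.690, 0.744 and 0.679 in VE-like cells and at 0.846, 0.932 and 0.941 in ExE-like cells, with no overlap between the groups. It was 2.27-fold higher in VE-like and 2.84-fold higher in ExE-like than in Epi-like cells. *Dhcr7*, which makes cholesterol itself, did not follow these neighbours, at 0.557 TP10k in VE-like and 0.933 in Epi-like cells. *Msmo1* stood at 1.82, 2.73 and 3.14 TP10k in Epi-like cells, at 2.46, 3.21 and 3.56 in VE-like cells and at 3.14, 4.09 and 4.26 in ExE-like cells, so the ranges of the 3 groups overlap although the order was the same on each plate. *Lss* values were 0.872, 0.963 and 1.02 in Epi-like, 0.588, 0.663 and 0.582 in VE-like and 0.831, 0.948 and 0.769 in ExE-like cells. *Hsd17b7* had the lowest mean of this arm in each group, 0.141 to 0.227 TP10k, and *Nsdhl* ranged from 0.318 to 0.551.

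None of the SREBP control genes met the 2-fold rule in a 3D comparison. *Srebf1* was at 0.339, 0.391 and 0.299 TP10k in Epi-like cells, at 0.479, 0.657 and 0.241 in VE-like cells and at 0.711, 0.541 and 0.602 in ExE-like cells, and its VE-like values overlap those of both other groups. *Srebf2* was at 0.361, 0.30 and 0.356 in Epi-like, at 0.465, 0.398 and 0.355 in VE-like and at 0.582, 0.503 and 0.463 TP10k in ExE-like cells. *Scap* was at 0.136, 0.0923 and 0.197 in Epi-like, at 0.222, 0.161 and 0.113 in VE-like and at 0.393, 0.278 and 0.285 TP10k in ExE-like cells. The 3 genes thus had their highest mean in ExE-like cells. The retention factor *Insig1* was at 0.884, 0.668 and 0.710 in Epi-like, at 0.959, 0.608 and 1.14 in VE-like and at 0.697, 0.508 and 0.538 TP10k in ExE-like cells, with overlapping values. *Insig2* was at 0.706, 0.767 and 0.679 in Epi-like, at 0.653, 0.406 and 0.431 in VE-like and at 0.856, 0.849 and 0.609 TP10k in ExE-like cells, which put the VE-like cells lowest on each plate.

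The cytosolic sterol carrier *Stard4* was at 0.156, 0.10 and 0.211 TP10k in Epi-like cells, at 0.543, 0.447 and 0.465 in VE-like cells and at 0.503, 0.523 and 0.601 in ExE-like cells. Epi-like cells were lowest without overlap, 2.3-fold below VE-like and 2.51-fold below ExE-like cells. *Tmem97* was likewise lower in Epi-like cells, at 1.33 TP10k against 2.39 and 2.01. Among the fatty acid genes, the stearoyl-CoA desaturase *Scd1* was at 0.138, 0.144 and 0.161 TP10k in Epi-like cells, at 0.424, 0.352 and 0.469 in VE-like cells and at 0.383, 0.372 and 0.528 in ExE-like cells. It was 2.07-fold and 2.12-fold higher in VE-like and ExE-like than in Epi-like cells. The elongase *Elovl6* was at 0.869, 0.922 and 0.951 in Epi-like, at 0.411, 0.457 and 0.437 in VE-like and at 1.18, 1.07 and 1.03 TP10k in ExE-like cells. *Fads2*, which starts the synthesis of long polyunsaturated fatty acids, was at 0.193, 0.166 and 0.239 in Epi-like, at 0.0373, 0.0237 and 0.0294 in VE-like and at 0.234, 0.196 and 0.166 TP10k in ExE-like cells. It was above 0 in 7.62% of VE-like cells (exact 95% interval 4.94 to 11.1%) and in 28.3% of the cells of either other group. *Elovl6* and *Fads2* were thus lowest in VE-like cells on every plate. *Fasn*, the synthase itself, had the opposite order, with 2.76 TP10k in VE-like cells against 2.06 (Epi-like) and 1.62 (ExE-like), and *Acly*, *Acaca*, *Scd2* and *Fads1* stood between 0.0987 and 1.89 TP10k with no call.

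The 2D cultures were read for the same lineages. iXEN cells had 3 members higher (*Ebp*, *Sc5d*, *Stard4*) and 4 lower (*Idi1*, *Fdps*, *Elovl6*, *Fads2*) by at least 2-fold than ESCs, where 8.21% and 5.96% of 13681 genes were called. Against iTSC, iXEN cells had 0 members higher and 6 lower (*Mvd*, *Fdps*, *Pmvk*, *Idi1*, *Scd2*, *Sqle*), where 5.18% and 5.3% of 13450 genes were called, and the members' median log2 difference was -0.48 against -0.06 over all genes. iTSC had 3 members higher (*Mvd*, *Pmvk*, *Srebf2*) and 1 lower (*Fasn*) than ESCs, where 5.69% and 3.3% of 13788 genes were called. *Fdps* was at 4.51 TP10k in ESCs, 5.93 in iTSC and 1.71 in iXEN cells, and *Idi1* at 0.938, 0.881 and 0.270. *Elovl6* was at 1.07, 0.696 and 0.322 TP10k in the same order of cultures, and *Fads2* at 0.205, 0.171 and 0.0426. These 4 genes were thus lowest in the endoderm type in both systems, whereas *Sc5d* (0.287, 0.552 and 0.779), *Stard4* (0.198, 0.379 and 0.735) and *Scd1* (0.189, 0.356 and 0.404) were lowest in ESCs, as they were in Epi-like cells. *Mvd* was at 0.599 TP10k in ESCs, 2.28 in iTSC and 0.491 in iXEN cells, and *Pmvk*, the kinase before it, at 1.02, 3.17 and 0.897, so that iTSC stood apart in both. *Fasn* was at 3.81, 1.53 and 1.95 TP10k, highest in ESCs. Among all 31 members, the lowest 3D group was the counterpart of the lowest 2D culture in 22, and the highest was the counterpart in 14. The same agreement was not counted over all genes, so these counts have no background and only describe the members.

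**Figure D2:**
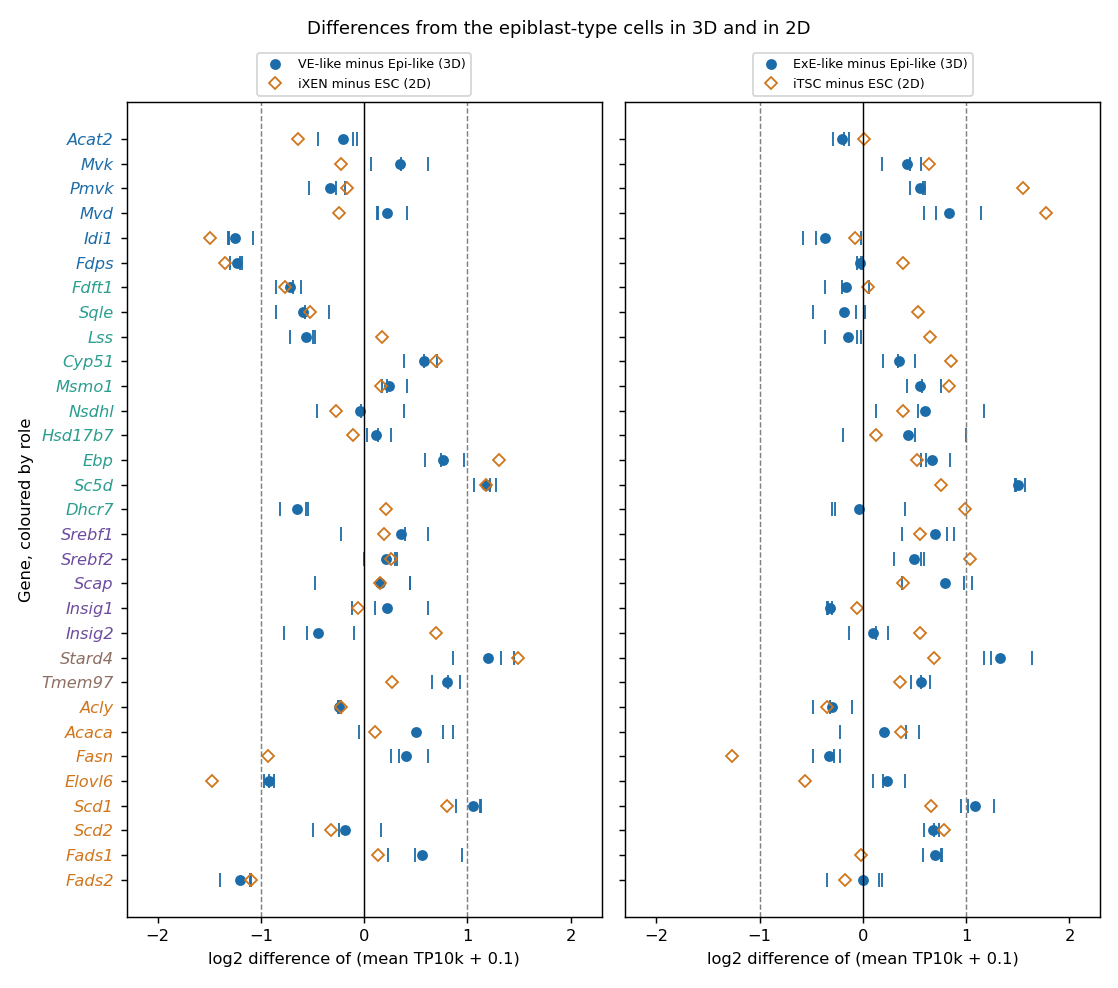
Differences of the 31 genes from the epiblast-type cells, for the endoderm type on the left and the trophoblast type on the right. The x axis is the log2 difference of (mean TP10k + 0.1), filled circles are 3D groups over all plates with ticks for plates 3, 4 and 5, open diamonds are the 2D cultures, and dashed lines mark 2-fold. *Idi1*, *Fdps* and *Fads2* lie left of -1 and *Sc5d* and *Stard4* right of 1 in both systems on the left, while *Mvd* and *Pmvk* reach 1.77 and 1.55 in iTSC on the right.

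Of the regulators, *Srebf2* in iTSC was the only one called between 2D cultures. *Srebf2* was at 0.374 TP10k in ESCs, 0.875 in iTSC and 0.467 in iXEN cells, and *Srebf1* at 0.428, 0.673 and 0.502. *Scap* was at 0.178, 0.264 and 0.209, *Insig1* at 0.669, 0.641 and 0.638, and *Insig2* at 0.326, 0.525 and 0.593 TP10k. *Msmo1* was at 1.44, 2.66 and 1.64 TP10k, *Acat2* at 1.28, 1.28 and 0.784, and *Lss* at 0.378, 0.649 and 0.437.

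The 3D compartments were then compared with their 2D counterparts, which cannot be told apart from plate and library batch. Few members were called. Epi-like cells had 1 member higher than ESCs (*Lss*) and 0 lower, where 2.49% and 1.92% of 13109 genes were called. *Lss*, at 0.872 to 1.02 TP10k on the 3 plates against 0.378 in ESCs, was 2.20-fold higher. With means taken over log values, 0 members were called higher than in ESCs and 1 lower, namely *Fasn*, with 1.14% and 3.18% of all genes, and the members' median turned from 0.06 to -0.09. VE-like cells had 1 member higher than iXEN cells (*Acat2*) and 0 lower, where 0.906% and 1.48% of 12248 genes were called. *Acat2* was at 1.29, 1.69 and 2.36 TP10k on the 3 plates against 0.784 in iXEN cells, 2.10-fold higher. The count of members called higher was 0 without plate 5 and 2 without plate 3, where 0.8% and 1.08% of all genes were called higher. ExE-like cells had 0 members called in either direction against iTSC, where 3.65% and 2.67% of 13012 genes were called. The widest differences there were those of *Ebp*, at 1.42 against 0.684 TP10k, and *Pmvk*, at 1.61 against 3.17. With means taken over log values, *Pmvk* and *Mvd* were called lower, 1.66% and 3.47% of all genes were called higher and lower, and the members' median turned from 0.15 to -0.09. Short of 2-fold, *Fasn* was at 1.87 to 2.18 TP10k on the plates of Epi-like cells against 3.81 in ESCs, and *Insig2* at 0.679 to 0.767 against 0.326.

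The VE-like cells were finally split by *Nodal*, a secreted signal of the TGF-beta family, into 60 cells above 0 (Nodal+), 19% of them, and the remaining 81% at 0 (Nodal-). The split was made on 1 measured gene, so *Nodal* itself is no result. Members and rules were chosen with earlier results of these data known. Of the 31 members, 8 were called higher in Nodal+ cells (*Mvd*, *Msmo1*, *Fdps*, *Acat2*, *Sqle*, *Lss*, *Fdft1*, *Idi1*) and 0 lower, where 0.786% and 0.412% of 10426 genes were called. All 8 are sterol enzymes, 4 of the 6 in the mevalonate arm and 4 of the 10 from squalene to cholesterol. The mean was higher in Nodal+ cells for 30 of the 31 members, among them all 16 sterol enzymes and all 8 fatty acid genes, while 47.6% of all genes tested were higher. The members' median log2 difference was 0.66, against -0.02 over all genes. The number of genes per cell was 5446 in Nodal+ and 5297 in Nodal- cells in the median.

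*Mvd* was at 1.43, 1.95 and 3.14 TP10k on plates 3, 4 and 5 in Nodal+ cells and at 0.580, 0.569 and 0.550 in Nodal- cells, 3.25-fold higher. *Msmo1* was at 4.38, 5.97 and 10.1 TP10k in Nodal+ and at 1.96, 2.54 and 2.26 in Nodal- cells, 2.80-fold higher. *Fdps* was at 4.08, 6.04 and 7.46 TP10k in Nodal+ and at 2.05, 2.11 and 1.89 in Nodal- cells, 2.72-fold higher. In each of the 3 genes the values of the Nodal+ cells lay above all values of the Nodal- cells, with plate 5 highest. *Fdps* was above 0 in 91.7% of Nodal+ cells (exact 95% interval 81.6 to 97.2%) and in 72.9% (67 to 78.3%) of Nodal- cells. *Acat2*, *Sqle*, *Lss*, *Fdft1* and *Idi1* were 2.16-fold to 2.56-fold higher. The median over cells was also higher, at 3.76 against 1.14 TP10k for *Msmo1* and at 3.39 against 1.08 for *Fdps*.

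The regulators of the pathway moved less. *Srebf1* was at 0.458 TP10k in Nodal+ and 0.468 in Nodal- cells, the only member with a lower mean. *Srebf2* was at 0.492 and 0.389, *Scap* at 0.221 and 0.156, *Insig1* at 1.04 and 0.861, and *Insig2* at 0.648 and 0.466 TP10k. *Srebf1*, *Scap* and *Insig1* did not keep their sign over the 3 plates. Of the fatty acid genes, *Fasn* was at 4.52 against 2.34 TP10k and *Scd1* at 0.758 against 0.332, both just short of 2-fold, whereas *Acly* and *Acaca*, at 1.79 against 1.53 and 0.196 against 0.177, changed sign between plates.

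**Figure D3:**
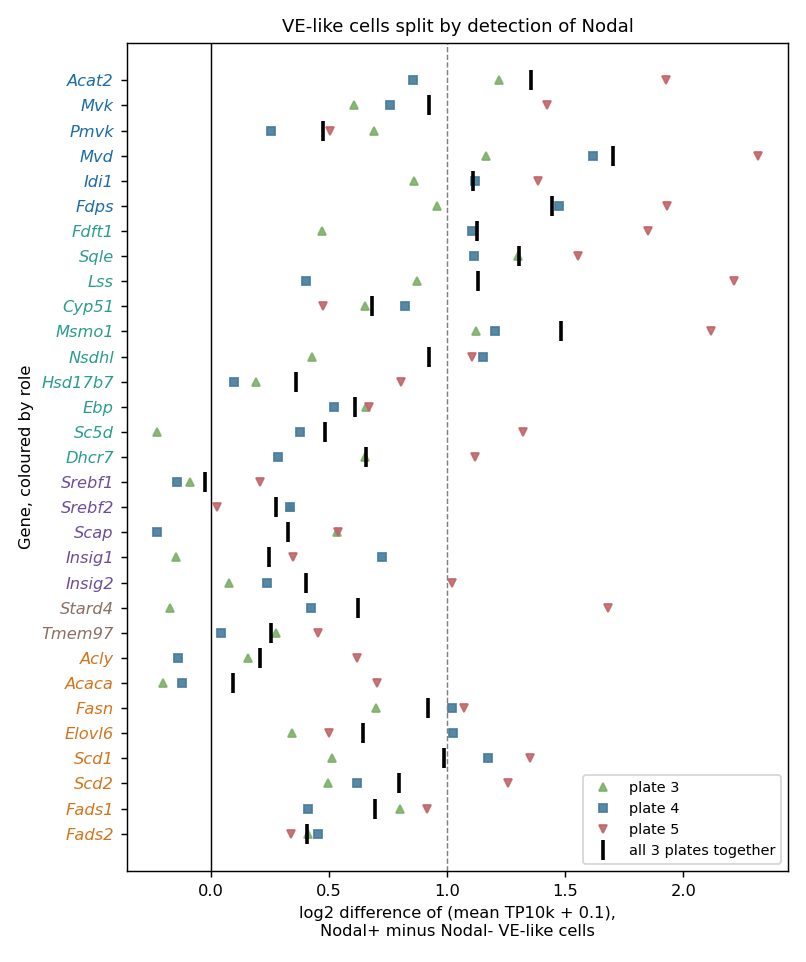
Difference between Nodal+ and Nodal- VE-like cells for the 31 genes. The x axis is the log2 difference of (mean TP10k + 0.1), triangles and squares are plates 3, 4 and 5, black bars are all plates together, and the dashed line marks 2-fold. All sterol enzymes (blue and green names) lie right of 0 with all plates together, and *Sc5d* on plate 3 is the single sterol enzyme value below 0.

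The count of 8 depended on the plates: it was 13 without plate 3, 9 without plate 4 and 5 without plate 5, where 1.61%, 0.858% and 0.762% of all genes were called higher, so that the background was also highest without plate 3. Among cells at or above the median number of genes of their plate it was 9, with 0.676% of all genes called higher, and among those below it was 6, with 1.58%. Other genes moved with the split. *Lefty1*, a *Nodal* target and anterior VE marker, was above 0 in 46.7% of Nodal+ and 7.45% of Nodal- cells, *Sparc* was at 46.9 against 62.9 TP10k and the Epi marker *Pou5f1* at 2.80 against 4.94, whereas the Epi marker *Utf1* was at 3.00 against 1.39 and the summed Epi list at 6.04 against 6.49 TP10k. The summed VE list was at 25.5 against 21.3 TP10k and the summed parietal endoderm list at 66.0 against 89.9 TP10k, each with the same direction on every plate. The summed anterior VE list was at 2.02 against 0.448 TP10k, with *Cer1* at 0.00426 and 0.00227 and *Otx2* at 0 and 0.00277 TP10k. In cells with *Lefty1* at 0, an alternative chosen after the data were seen, 4 members were called higher and 28 of 31 had a higher mean, against 0.621% called higher and 47.4% with a higher mean over all genes. The summed cycling genes were at 5.85 and 6.68 TP10k. The part of these in the result was not tested.

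The same split was made in the other columns after the values of the VE-like cells were known. Among Epi-like cells, of which 56.4% were Nodal+, 0 members were called in either direction, 16 of the 31 had a higher mean in Nodal+ cells and the members' median log2 difference was 0.04, with 0.0298% of 10070 genes called in each direction. Among ExE-like cells, of which 35, or 9.92%, were Nodal+, 8 members were called higher and 0 lower, with 2.03% and 2.47% of 11036 genes called. These were *Fasn*, *Scd1*, *Lss*, *Acat2*, *Insig1*, *Cyp51*, *Dhcr7* and *Mvd*. Only *Acat2*, *Mvd* and *Lss* were also called among VE-like cells, while *Fdps*, *Msmo1*, *Sqle*, *Fdft1* and *Idi1* were short of 2-fold here. Without the wells led by markers of another lineage, 17 Nodal+ ExE-like cells remained, 0 members were called, with 0.84% and 4.25% of 11185 genes called higher and lower, and 25 of 31 had a higher mean. The members' median log2 difference was 0.77 with these wells and 0.43 without them, the log2 difference of *Fdps* 0.84 and 0.91, and the summed sterol enzymes without them were at 39.1 TP10k in Nodal+ and 24.4 in Nodal- cells, higher in Nodal+ cells on each plate. The difference between the columns was not tested, and the Nodal+ cells had more genes per cell than the Nodal- cells in both, 5079 against 4507 among Epi-like and 6110 against 5373 among ExE-like cells.

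Summed over the 16 measured sterol enzymes, the mean level was 19.4, 21.6 and 22.7 TP10k on plates 3, 4 and 5 in Epi-like cells, 14.9, 17.2 and 18 in VE-like cells and 24.3, 24.6 and 24.4 in ExE-like cells. By these means VE-like cells were lowest and ExE-like cells highest on each plate. By the median over cells the upper 2 changed places, at 18.9 TP10k in Epi-like, 18.6 in ExE-like and 11.3 in VE-like cells. Between VE-like and Epi-like cells, the gap in means lay in the sum of the mevalonate arm. This sum was 6.02, 7.11 and 8.01 against 11.1, 11.8 and 12.4 TP10k. Most of that gap came from *Fdps* alone, at 2.47, 2.88 and 2.80 against 6.24, 6.67 and 6.57 TP10k. Of the 6 genes of the arm, 4 had a lower mean in VE-like cells, while *Mvk* and *Mvd* had a higher one. The means of the arm from squalene to cholesterol overlapped, at 8.88, 10.1 and 9.97 against 8.33, 9.82 and 10.4 TP10k. By the median this arm was lower in VE-like cells, at 6.65 against 8.50 TP10k. Against ExE-like cells, both arms had lower means in VE-like cells on each plate. Summed over all 16 enzymes, Nodal+ VE-like cells were at 23.8, 29.5 and 43.8 TP10k and Nodal- cells at 12.6, 14.2 and 12.9. In 2D the sums were 14.7 in ESCs, 23.7 in iTSC and 11.4 in iXEN cells. Cells within a group differed widely, and the quartiles of the Nodal+ cells were 12.1 and 44.4 TP10k, those of the Nodal- cells 6.83 and 14.1.

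**Figure D4:**
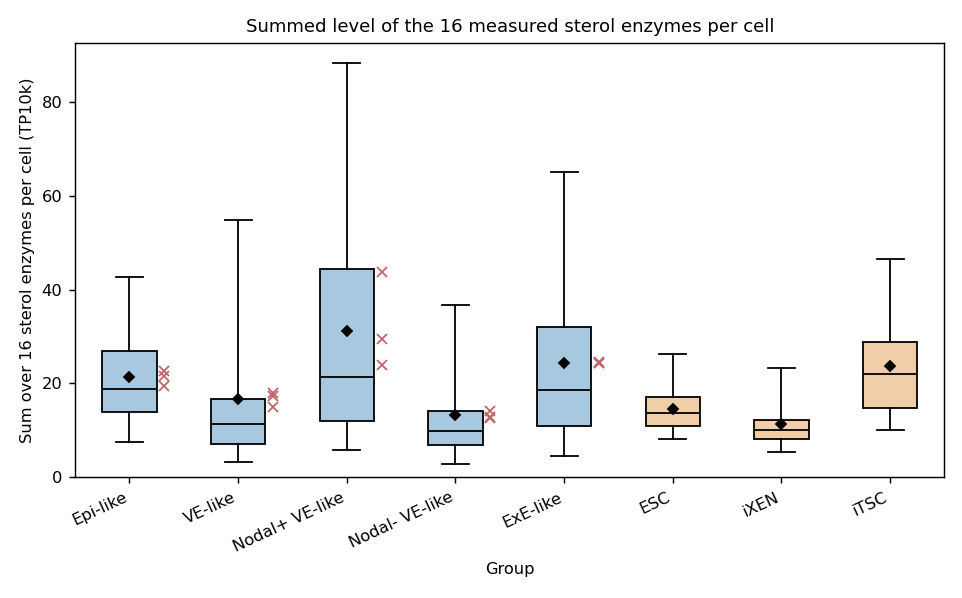
Sum of the levels of the 16 measured sterol enzymes per cell. Boxes run from the lower to the upper quartile of the cells with the median as a line, whiskers run from the 5th to the 95th percentile, diamonds are means, red crosses are the means on plates 3, 4 and 5, and blue boxes are 3D and orange boxes 2D groups. Nodal+ VE-like cells have a median of 21.4 and Nodal- cells one of 9.87 TP10k.

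From cell to cell, the sterol enzymes varied together, which is given as a description since the values of a cell share its library and depth. Over all VE-like cells, Spearman's rho of each sterol enzyme with the sum of the others had a median of 0.43 and ranged from 0.23 (*Hsd17b7*) to 0.60 (*Msmo1*). For *Srebf1*, *Srebf2*, *Scap* and *Insig2* rho with the same sum was 0.14, 0.21, 0.08 and 0.08, for *Insig1* 0.27, and for *Fasn* 0.47. The median rho of the sterol enzymes was 0.31 over all Epi-like and 0.52 over all ExE-like cells. The sum itself had a rho with the number of genes per cell of 0.09 in VE-like cells, against 0.04 (Epi-like) and 0.19 (ExE-like).

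Genes of the pathway outside the members were read from further lists. Of all genes, 8.48% were called higher and 7.54% lower in VE-like than in Epi-like cells. By the *Nodal* split the shares were 0.786% and 0.412%. The lists are short, and their counts between VE-like and Epi-like cells are not read as a result about the lists. Of 4 other sterol enzymes, 1 was called higher and 0 lower by the *Nodal* split, namely *Tm7sf2*, a sterol reductase, at 0.983 TP10k in Nodal+ and 0.194 in Nodal- VE-like cells. Between VE-like and Epi-like cells 0 of the 4 were called higher and 1 lower, namely *Lbr*, a sterol reductase of the nuclear membrane, at 0.517 against 1.68 TP10k. Of 15 genes of uptake, efflux and storage, 12 of which passed the filter on low values in VE-like or Epi-like cells, *Soat1*, which esterifies cholesterol for storage, was higher in VE-like cells at 2.70 against 0.650 TP10k, and the exporter *Abcg1* lower at 0.00893 against 0.206. *Soat1* was also at 2.49 TP10k in iXEN cells and 0.0971 in ESCs. In Nodal+ VE-like cells 0 genes of that list were called higher and 1 lower, the lipid droplet coat gene *Plin2*, at 0.483 against 1.15 TP10k.

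Of 5 genes of SREBP cleavage and INSIG turnover, 0 were called between VE-like and Epi-like cells and 0 by the *Nodal* split. The shares of all genes called higher and lower were again 8.48% and 7.54%, and 0.786% and 0.412% by the *Nodal* split. Of 16 further genes of fatty acid synthesis, 15 passed the filter in VE-like or Epi-like cells, and *Elovl1*, which elongates saturated fatty acids, was at 2.89 against 0.426 TP10k and the malic enzyme *Me1* at 0.801 against 0.186, both called higher in VE-like cells with 0 lower. In ExE-like cells *Elovl1* was at 2.64 TP10k. By the *Nodal* split, *Acss2*, which makes acetyl-CoA from acetate, was at 0.317 against 0.0573 and *Acsl1*, which activates fatty acids, at 0.477 against 0.161 TP10k, both called higher with 0 lower. Of 9 genes of fatty acid oxidation, 8 passed the filter, and 1 was called higher in VE-like than in Epi-like cells, *Acadl*, which oxidizes long-chain fatty acids, at 0.979 against 0.419 TP10k, whereas 0 were called by the *Nodal* split in either direction.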

How the data were processed

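Of the single cells of RtL-embryoids and of ESC, iTSC and iXEN cultures, the authors deposited TPM per gene and well. SMART-seq2 reads were pseudoaligned to GRCm38 transcripts (kallisto) and collected per gene (tximport), and genes of mitochondria and ribosomes and pseudogenes were taken out, so that a cell's values no longer reach the full TPM sum. The submitters' processing notes also name bcl2fastq 2.20 and Seurat. Depth is unknown, and equal-depth thinning was not possible. Wells were sorted singly, and no doublet caller was run.

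Wells with at least 2500 genes above 0 were kept and scaled to 10000 (TP10k). Log2 differences used means with a pseudocount of 0.1 TP10k, over genes above 0 in 10% or more of either group's cells. Calls between 2D cultures had no plate condition. Exact intervals are Clopper-Pearson at 95%. Python 3.11.15, numpy 2.4.6, pandas 2.3.3, scipy 1.17.1 and matplotlib 3.10.9 were used, and the call rule was tested on simulated data. Positions come from Gencode vM21 and promoters from RefSeq.

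Members, lists and rules were chosen with earlier results of these data known. All members are accounted for; given in full are *Fdps*, *Msmo1*, the 5 SREBP control genes and, per 3D, 3D with 2D and *Nodal* comparison, up to 3 called members in each direction, and of other lists up to 3 called genes. Of these other lists, 3 genes are not reported here and are left out of their counts. Alternatives were the minimum of genes, scale, pseudocount, geometric mean, filter, fold, wells with other markers, single plates, and *Nodal* minimum, parts by depth and *Lefty1*.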

Additional observations from a re-analysis of the deposited data

Results flagged for a closer look

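The decarboxylase gene *Mvd* went opposite ways between 3D and 2D in 2 lineages on every plate: its log2 difference was 0.69 for VE-like minus iXEN cells (0.853 against 0.491 TP10k) and -0.71 for ExE-like minus iTSC cells (1.36 against 2.28 TP10k). The difference between these lineages was not tested, and culture, plate and library batch cannot be told apart.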

How the results depend on the processing

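The number of members past 2-fold, without regard to direction, changed with the pseudocount, the fold and, in small counts, the scale. With a pseudocount of 1 it was 1 for VE-like against Epi-like, 0 for VE-like against ExE-like, 0 for ExE-like against Epi-like, 0 for Epi-like against ESC, 0 for VE-like against iXEN, 1 for iXEN against ESC, 2 for iTSC against ESC, 3 for iXEN against iTSC and 2 for the *Nodal* split. The share of all genes called was, in the same order, 2.87, 1.65, 1.63, 0.45, 0.376, 2.87, 1.32, 2.07 and 0.048%. A pseudocount of 1 exceeds the levels of most members and shrinks every fold. With 0.01 the number of members was 2 for Epi-like against ESC (14.6% of all genes) and 1 for ExE-like against iTSC (17%). It was 6 for iTSC against ESC (23.5%), 9 for iXEN against iTSC (24.3%) and 12 for the *Nodal* split. In that split 2.55% and 2.96% of all genes were called higher and lower. At 1.5-fold the number of members was, in the order of the 9 comparisons given for a pseudocount of 1, 12, 11, 10, 10, 4, 13, 13, 17 and 18, and 5 for ExE-like against iTSC. The share of all genes past 1.5-fold in either direction was, in the same order, 35.5, 25.4, 26, 16.3, 9.88, 30.7, 22.5, 24.1 and 5.89%, and 19.1% for ExE-like against iTSC. For ExE-like against iTSC the number of members was also 1 with at least 4000 genes per cell (5.76% of all genes) and 1 with TPM as deposited (6.52%). On the geometric scale it was 2, with both genes lower (5.13%), and VE-like against iXEN gave 0 (2.3%). On that scale Epi-like against ESC turned from 1 higher and 0 lower to 0 higher and 1 lower. Leaving out single plates gave 0 to 2 for VE-like against iXEN (2.29 to 2.81% of all genes) and 0 to 1 for ExE-like against iTSC (5.79 to 6.81%). For the *Nodal* split it gave 5 to 13 (1.31 to 3%). In VE-like cells with *Lefty1* at 0, added after the data were seen, the *Nodal* split gave 4. The sterol enzyme sum of ExE-like cells, 24.4 TP10k, was 25.7 with at least 4000 genes and 25.4 without wells led by other markers; the cause of these shifts was not tested. In comparisons with a 3D side, no fold called in the main setting changed sign under these alternatives. Most of them could not change it. The pseudocount, the fold and the filter leave the sign as it is, and a call already required the same sign on plates 3, 4 and 5. Folds called between 2D cultures were not followed. No paired analysis was possible because no result comes from a test. With 1 sample per condition and unknown depth, the values describe these libraries.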
